A study of Mus musculus with 2 samples.

Results

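The 6 genes of 2 chemokine systems were followed through a pair of mouse single-cell RNA libraries: the CXCR3 ligands Cxcl9, Cxcl10 and Cxcl11 with their receptor Cxcr3, and the CXCR6 ligand Cxcl16 with its receptor Cxcr6. They were selected by gene symbol, and all 6 were found once among the 55357 features of each library. The question behind the series is whether RUNX3, a factor that steers the gene programme of killer lymphocytes, marks how many natural killer (NK) cells reach colorectal tumours. One library is labelled KO, with the genotype RUNX3 ko, and the other is labelled WT, with the genotype RUNX3 wt. Both have colon as the tissue label, and the series' design text speaks of RUNX3-/- mice and of tumour models. The sources used here do not give the deleted part of the gene, the strain, age and number of the animals or the kind of tumour. KO and WT below stand for the libraries so labelled. With 1 library per group there was no replicate check on any difference, and no test was made. Intervals in parentheses are 95% intervals that cover counting error only.

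CXCL9, CXCL10 and CXCL11 are secreted proteins that myeloid, dendritic and stromal cells make after exposure to interferons, and they draw in activated T and NK cells that carry CXCR3. CXCL16 is made as a membrane-bound protein that proteases can release, and its receptor CXCR6 is carried by effector and tissue-resident T cells, by IL-17-producing T cells and by innate lymphocytes. In tumours, both systems are known for placing lymphocytes next to dendritic cells and macrophages. The 3 CXCR3 ligand genes lie side by side on chromosome 5 of mm10 and are all read from the minus strand: Cxcl9 (ENSMUSG00000029417) at 92321347 to 92328079, Cxcl10 (ENSMUSG00000034855) at 92346638 to 92348889 and Cxcl11 (ENSMUSG00000060183) at 92359544 to 92365485, a span of 44139 bases. Cxcl11 is annotated as a polymorphic pseudogene, since the reference strain carries an allele with an interrupted reading frame, whereas the other 5 genes are annotated as protein-coding. Cxcr3 (ENSMUSG00000050232) lies on the minus strand of chromosome X at 101731535 to 101734269, Cxcl16 (ENSMUSG00000018920) on the minus strand of chromosome 11 at 70453983 to 70459984, and Cxcr6 (ENSMUSG00000048521) on the plus strand of chromosome 9 at 123806475 to 123811760.

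Promoter sequences of Cxcl9, Cxcl10, Cxcr3 and Cxcr6 are shown because the series removed a RUNX factor and because Cxcl10 and Cxcl11 were highest in cells with an interferon programme. The set of RefSeq promoters used here held these 4 of the 6 genes. Each runs 5′ to 3′ in the direction of the gene from 250 bases before its annotated start to 50 bases after it (GRCm38.p6). Capitals mark matches on either strand to 3 motifs: an interferon-stimulated response element (GAAA and GAAA with any 2 bases between), a kappaB site (GGGA and CC with any 4 bases between) and a RUNX site (TGTGGT, or ACCACA where it lies on the other strand).
Cxcl9, chr5:92328030-92328329, minus strand: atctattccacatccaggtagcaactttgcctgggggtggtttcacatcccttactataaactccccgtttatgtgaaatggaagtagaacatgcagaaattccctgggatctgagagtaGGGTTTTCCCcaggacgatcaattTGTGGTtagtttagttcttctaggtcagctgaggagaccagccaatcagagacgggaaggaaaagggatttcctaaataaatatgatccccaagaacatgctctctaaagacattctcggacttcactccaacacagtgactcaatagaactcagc
Cxcl10, chr5:92348840-92349139, minus strand: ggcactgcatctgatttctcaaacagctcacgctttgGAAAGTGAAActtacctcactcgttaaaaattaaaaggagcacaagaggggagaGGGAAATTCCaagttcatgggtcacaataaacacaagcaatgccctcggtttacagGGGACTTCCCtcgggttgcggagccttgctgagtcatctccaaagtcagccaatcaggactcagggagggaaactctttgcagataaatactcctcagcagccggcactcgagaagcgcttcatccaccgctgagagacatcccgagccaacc
Cxcr3, chrX:101734098-101734397, minus strand: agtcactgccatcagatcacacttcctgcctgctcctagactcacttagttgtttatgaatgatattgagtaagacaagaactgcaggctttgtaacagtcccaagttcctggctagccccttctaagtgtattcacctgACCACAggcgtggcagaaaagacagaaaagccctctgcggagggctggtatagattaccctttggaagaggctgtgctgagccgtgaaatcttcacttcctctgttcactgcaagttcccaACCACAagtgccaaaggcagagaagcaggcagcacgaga
Cxcr6, chr9:123806227-123806526, plus strand: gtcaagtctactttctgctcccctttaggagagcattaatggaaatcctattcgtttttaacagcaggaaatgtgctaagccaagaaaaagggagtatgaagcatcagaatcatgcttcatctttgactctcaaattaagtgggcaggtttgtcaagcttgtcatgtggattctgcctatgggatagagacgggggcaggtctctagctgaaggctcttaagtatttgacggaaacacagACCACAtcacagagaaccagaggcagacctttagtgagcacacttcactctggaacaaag
The Cxcl10 window held 1 interferon-response match, which starts 213 bases before the annotated start, and 2 kappaB matches. The Cxcl9 window held 1 kappaB and 1 RUNX match, the Cxcr3 window 2 RUNX matches and the Cxcr6 window 1 RUNX match. Among 32851 mouse promoters of the same length, 3.44% held the interferon-response motif, 20.7% the kappaB motif and 16.8% the RUNX motif. A match describes letters in a window and does not show that a factor binds there.

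The KO library held 6573 cell barcodes with 62465176 UMIs and the WT library 8800 barcodes with 85367638 UMIs. After filtering and removal of likely doublets, 5194 KO cells and 8343 WT cells remained, with medians of 9350.5 and 8281 UMIs. The libraries shared 17 barcodes. Runx3 transcripts were found in both, at 270 CPM (UMIs per 1000000 UMIs of the cells concerned) in KO T-like cells and 385 CPM in WT T-like cells. Since the deleted part of the gene is not given, this level does not check the label. Ptprc, the pan-leukocyte CD45 gene, was found in 90.3% of KO cells and 91.8% of WT cells, and no cell of either library had UMIs of 3 or more of 9 epithelial markers, so the libraries hold leukocytes and a mesenchymal fraction, with no epithelial cells found. The KO library held cells of both sexes. By Xist and Y-linked genes, 54.7% of its cells were female-type, 24.1% male-type and 8.07% had UMIs of both kinds, against 6629 male-type and 1 female-type cell in WT. The KO library therefore holds cells of at least 1 female and 1 male animal, and the WT library of male animals, so genotype, sex and animal cannot be told apart between whole libraries. Cells with UMIs of both kinds had a median of 16437 UMIs, and values without them are given where they move a result.

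Cells were grouped into 28 clusters without using the 6 genes, and 23 clusters were named as X-like from marker genes. Macrophage- or monocyte-like cells (9 clusters) made up 58.1% of KO cells and 52.2% of WT cells. The most numerous KO cluster of this class was cluster 1, led by Fcrls, Cbr2 and Gas6, and the most numerous WT cluster was cluster 8, led by Arg1, F7 and Mmp12. T-like cells made up 10.3% of KO and 14.9% of WT cells, and NK-like cells 1.98% and 4.05%. There were 304 KO and 509 WT dendritic-like cells and 162 and 229 fibroblast-like cells, a mesenchymal cluster led by Col3a1 that also carried Sox9 and Hmga2. All levels are in CPM.

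Over all cells, Cxcr6 alone of the 6 genes differed between the libraries by more than the fold used here, a log2 ratio of CPM plus 5 of at least 0.5 in size. Cxcr6 was at 16.6 CPM in KO (15.6 to 17.8) and 32.1 CPM in WT (30.9 to 33.4), a log2 ratio of -0.78. That is 1 of 6 genes lower and 0 of 6 higher, where 1.33% of 16329 genes were lower and 1.43% higher past the same fold. Its partner ligand Cxcl16 was at 456 CPM in KO and 483 CPM in WT, a log2 ratio of -0.08. The CXCR3 ligands had log2 ratios of -0.06 for Cxcl9 (522 CPM in KO, 545 CPM in WT), 0.30 for Cxcl10 (339 and 275 CPM) and 0.24 for Cxcl11 (12.5 and 9.83 CPM). Cxcr3 was at 4.72 CPM in KO (4.17 to 5.33) and 4.91 CPM in WT (4.42 to 5.43), intervals that overlap.

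Cxcl9 came mainly from macrophage- and monocyte-like cells, which held 80.4% of its UMIs in KO and 71.2% in WT. Its level in this class was 696 CPM in KO (687 to 705) and 686 CPM in WT (678 to 694). A few cells held much of it: the 1% of cells with most Cxcl9 carried 22.6% of its UMIs in KO and 20.5% in WT. Among the clusters with at least 20 cells in each library, 2 macrophage-like clusters were highest in both. Cluster 5, led by Ifih1, Slc7a2 and Il1rn, had 1375 CPM in KO (1346 to 1404) and 1343 CPM in WT (1316 to 1370). Cluster 4, led by Ccl8, Dnase1l3 and Itga9, had 1647 CPM in KO (1603 to 1692) and 1029 CPM in WT (1005 to 1053), a log2 ratio of 0.68. These clusters thus exchanged ranks, with cluster 4 first in KO and cluster 5 first in WT.

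Monocyte-like cells, cluster 7, went the other way. There Cxcl9 was at 267 CPM in KO (251 to 285) and 581 CPM in WT (559 to 602), a log2 ratio of -1.10, while Cxcl10 was at 425 CPM in KO and 317 CPM in WT, a log2 ratio of 0.42. Among the other macrophage-like clusters, the log2 ratios of Cxcl9 ran between -0.42 in cluster 1 and 0.49 in cluster 10. Thinning every cell to 1000 UMIs gave a Cxcl9 UMI in 21.7% of KO and 23.4% of WT macrophage- or monocyte-like cells, where the full data (median depths 10145 and 9212 UMIs) gave 42.9% and 46.0%. In CD8 T-like cells, which are not known as a source of the protein, the thinned shares were 6.11% in KO and 1.246% in WT. None of the 5 members with at least 50 UMIs in macrophage- or monocyte-like cells passed the fold between the libraries, where 1.28% of 13540 genes were higher and 1.11% lower.

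**Figure D1:**
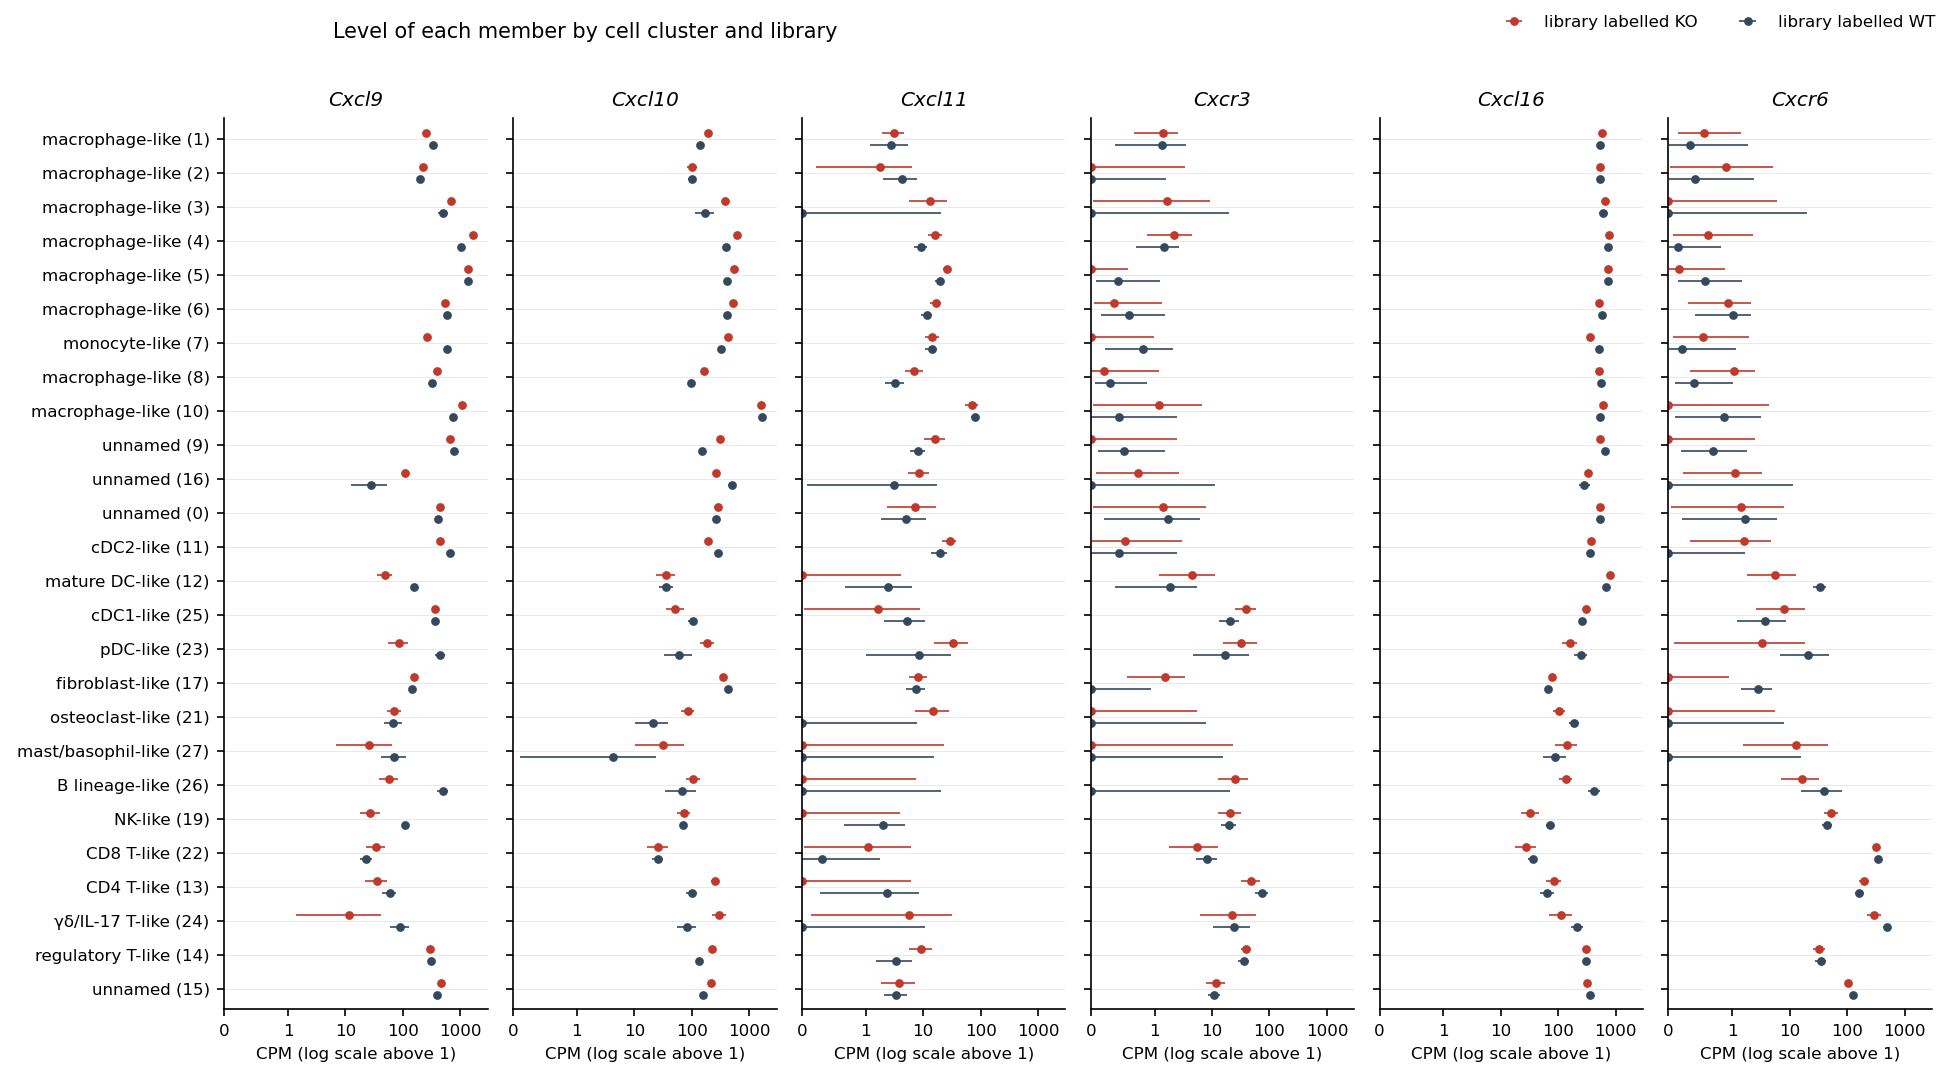
Level of the 6 genes (x axes, UMIs per 1000000, linear below 1 and logarithmic above) in the 26 clusters with at least 20 cells in each library (rows, cluster number in parentheses), with KO points above WT points and 95% Poisson intervals for counting error only. Cxcl9 and Cxcl10 sit highest in macrophage-like rows at the top, Cxcl16 reaches 794 CPM in the mature DC-like row in KO, and the receptors in the lymphocyte rows at the bottom, with Cxcr3 also in the cDC1-like and pDC-like (plasmacytoid) rows.

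Within the KO library, Cxcl9 differed between cells of the 2 sexes by more than it did between the libraries. In macrophage- and monocyte-like cells it was at 455 CPM in female-type KO cells (445 to 465, 1697 cells) and 1057 CPM in male-type KO cells (1036 to 1079, 782 cells), with male-type WT cells between them at 680 CPM (672 to 688, 3594 cells). Cluster 1 showed the highest ratio between the KO sex types of the 7 clusters compared, with 124 CPM in female-type KO cells, 760.5 CPM in male-type KO cells and 344 CPM in male-type WT cells. Cluster 3, not among the 7 because it had under 20 male-type WT cells, went the other way, with 995 CPM in 40 female-type KO cells (871 to 1131) and 231 CPM in 26 male-type KO cells (156 to 329). Cycling macrophage-like cells, cluster 6, had 242 CPM in female-type KO cells, 887 CPM in male-type KO cells and 581 CPM in male-type WT cells, and cluster 5 had 903, 1773 and 1301 CPM. In cluster 4 the sexes did not separate, at 1598 CPM in female-type KO cells (1532 to 1667) and 1589 CPM in male-type KO cells (1519 to 1660), both above the 1021 CPM of male-type WT cells (995 to 1047). In the monocyte-like cluster both KO sex types were low, at 244 and 283 CPM, against 578 CPM in male-type WT cells. The near equality of Cxcl9 over whole libraries thus sums cells that lie on opposite sides of WT: the log2 ratio over all cells was 0.51 with male-type cells alone and -0.53 with the female-type cells of KO set against WT. Sex and animal cannot be told apart here, since the sources do not say how many animals were pooled.

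**Figure D2:**
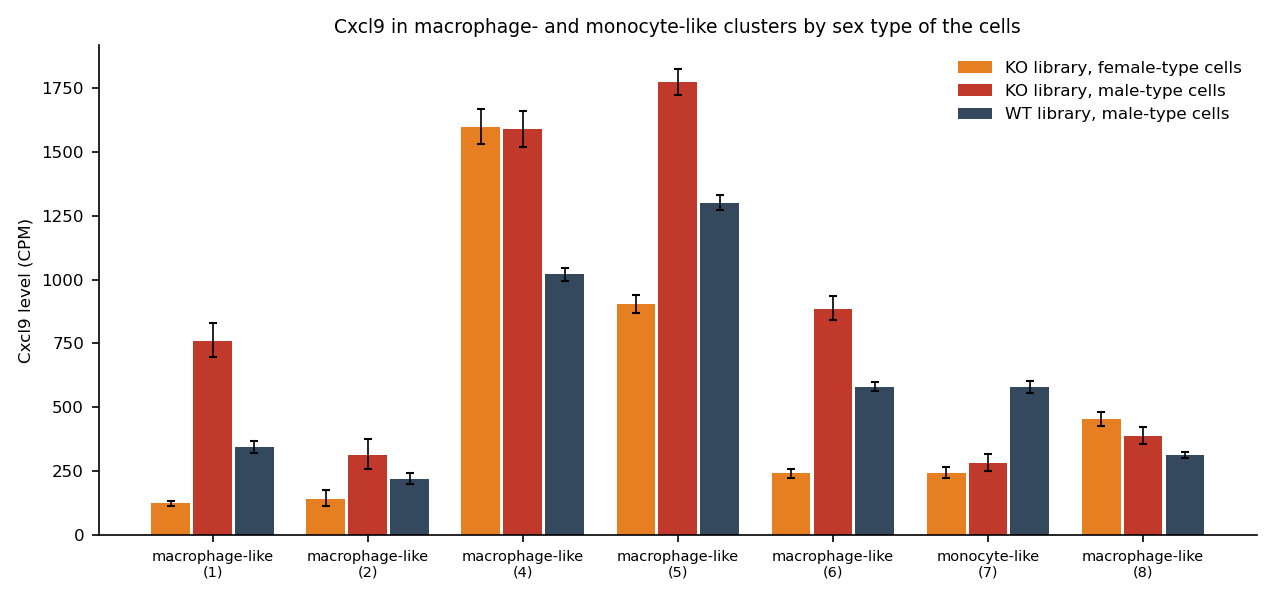
Cxcl9 level (y axis, UMIs per 1000000) in 7 macrophage- and monocyte-like clusters (x axis, number in parentheses) for female-type KO cells, male-type KO cells and male-type WT cells, with 95% Poisson intervals for counting error only. In clusters 1, 2, 5 and 6 the WT bar lies between the KO bars, in clusters 4 and 8 both KO bars are above it, and in the monocyte-like cluster 7 both are below it.

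Cxcl10 was highest in cluster 10, the macrophage-like cells led by the interferon-induced genes Rsad2, Ifit3 and Ifit1, at 1585 CPM in KO (1501 to 1672) and 1649 CPM in WT (1597 to 1703). That cluster was 1.64% of KO cells and 3.10% of WT cells, and it held 7.21% of all Cxcl10 UMIs in KO and 18.1% in WT. Each of the other 8 macrophage- or monocyte-like clusters had a higher Cxcl10 level in KO, with log2 ratios between 0.02 in cluster 2, where the intervals overlap, and 1.15 in cluster 3. Cluster 4 had 625 CPM in KO and 402 CPM in WT, and cluster 8 had 163 and 97.4 CPM. Over the class the level was 413 CPM in KO (406 to 420) and 357 CPM in WT (352 to 363), a log2 ratio of 0.21. It kept that sign in female-type KO cells (0.04 on the log2 scale) and in male-type cells of both libraries (0.25).

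The fibroblast-like cluster carried Cxcl10 at 356 CPM in KO (337 to 375) and 422 CPM in WT (402 to 442) and held 7.48% and 7.94% of its UMIs. Cxcl9 was at 157 CPM in KO and 145 CPM in WT in the same cells, with macrophage markers summed over 12 genes at 2623 and 1476 CPM. Neither Xist nor a Y-linked gene was found in 111 of the 162 KO cells and 183 of the 229 WT cells, at median depths of 16741 and 14012 UMIs, so the cluster is not shown to be stroma of the animals. Its cells differed: those WT cells had Cxcl10 at 290 CPM (270 to 310), and the 45 male-type WT cells at 789 CPM (736 to 845). KO went the other way. Cxcl10 was at 400 CPM (375 to 427) in those 111 KO cells and 213 CPM (185 to 243) in 37 female-type KO cells. Cxcl9 was at 70.8 and 349 CPM in the same WT cells and at 126 and 265 CPM in the same KO cells. Of the 1392 KO UMIs of Cxcl10 in this cluster, 264 lay in the top cell. That cell was among those 111: the female-type KO cells held 217 in all, and the remaining KO cells also under 264. Leaving out the top cell of each library gave Cxcl10 at 290 CPM in KO and 388 CPM in WT over the cluster. The contrast within KO was not tested without that cell. A group of 8 cells, left unnamed for its size and led by the mesenchymal genes Tnc, Igfbp5 and Col1a1, also held Cxcl9. Its 4 KO cells held 36, 27, 49 and 3 UMIs and its 4 WT cells 39, 16, 283 and 2. That gave 1083 CPM in KO, under the 1647 and 1375 CPM of clusters 4 and 5. In WT it gave 8365 CPM, with 283 of the 340 UMIs in 1 cell. The WT cell with 283 UMIs had the highest count of any WT cell, and 8 of the 12 macrophage markers were at 0 over the WT cells of this group. Over its KO cells none was at 0, the markers summed to 2176 CPM and 25% of the cells had UMIs of both sexes.

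Cxcl11, read from the same locus, was highest in cluster 10, like Cxcl10. It was at 69.7 CPM there in KO (53.1 to 89.9) and 78.8 CPM in WT (67.7 to 91.2). Conventional type 2 dendritic (cDC2)-like cells had 28.9 CPM in KO and 19.3 CPM in WT, and cluster 5 had 26.1 CPM in KO and 19.3 CPM in WT. Plasmacytoid dendritic-like cells had 32.5 CPM in KO, with all 10 UMIs in 1 cell, and 8.43 CPM in WT. Of the macrophage- or monocyte-like cells with a Cxcl11 UMI, 87.0% in KO and 86.5% in WT also had one of Cxcl10, whereas Cxcl10 was found in 44.3% and 38.1% of the whole class. After thinning to 1000 UMIs, the Cxcl10 share among Cxcl11-positive cells was 68.4% in KO (26 of 38 cells) and 62.7% in WT (37 of 59 cells).

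The same cells tended to hold several of the ligands. After thinning, Cxcl10 was found in 25.5% of Cxcl9-positive and 15.1% of Cxcl9-negative KO cells of the macrophage or monocyte class, and in 24.2% and 11.5% of those WT cells. Cxcl16 was found in 52.4% and 37.5% of Cxcl9-positive and Cxcl9-negative KO cells and in 50.8% and 39.6% of WT cells. These are descriptions of cells that share a library and a cluster makeup.

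Dendritic-like cells divided the ligands between their subsets. The cDC2-like cells carried Cxcl9 at 451 CPM in KO (421 to 482) and 648 CPM in WT (615 to 683), a log2 ratio of -0.52. Type 1 (cDC1)-like cells, the cross-presenting subset, had 363 CPM in KO (317 to 414) and 358 CPM in WT (327 to 391.7). Of the 226 KO UMIs, 82 lay in 1 cell, and leaving out the top cell of each library gave 239 CPM in KO and 313 CPM in WT. Mature dendritic-like cells, led by Fscn1, Ccl22 and Ccr7, had 48.8 CPM in KO (35.5 to 65.6) and 157 CPM in WT (139 to 178), with 72 of the 254 WT UMIs in 1 cell. Their macrophage markers summed to 962 and 1058 CPM. For Cxcl10, the cDC2-like cells had 191 CPM in KO and 291 CPM in WT, and cDC1-like cells 51.4 CPM in KO (35.2 to 72.6) and 103 CPM in WT (86.5 to 122), log2 ratios of -0.59 and -0.94. Of the 32 KO UMIs in cDC1-like cells, 16 lay in 1 cell. In cDC2-like cells the sexes of the KO library differed, at 93.7 CPM in female-type KO cells (76.0 to 114) and 315 CPM in male-type KO cells (269 to 366), against 299.5 CPM in male-type WT cells (276 to 324). Over the dendritic class the Cxcl10 ratio, -0.38, lay between -1.11 and 0.63 over the alternatives, and it was above 0 in male-type cells (0.24), without doublet removal (0.087) and with the marker gate. The Cxcl9 ratio of the class, -0.35, was 1.40 with the marker gate. Cxcl16, in contrast to Cxcl9, was highest of these subsets in mature dendritic-like cells, at 794 CPM in KO (737 to 854) and 686 CPM in WT (646 to 728). Over the dendritic class, Cxcr6 was the only 1 of the 6 genes past the fold, and it was lower, where 4.37% of 9425 genes were lower and 2.16% higher. It was at 3.83 CPM in KO (13 UMIs) and 11.4 CPM in WT (59 UMIs), and 54 of the WT UMIs lay in mature dendritic-like cells.

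Cxcl16 was the most evenly spread ligand of the myeloid cells. In the 9 macrophage- or monocyte-like clusters it ran between 361 CPM in cluster 7 and 764 CPM in cluster 4 in KO, and between 509.7 CPM in cluster 7 and 743 CPM in cluster 4 in WT. A UMI was found in 88.3% of KO and 90.5% of WT cells of the class, and in 40.7% and 42.2% after thinning. The cells richest in it, 1% of each library, held 5.58% of its UMIs in KO and 5.66% in WT. The monocyte-like cluster had the lowest log2 ratio of the 9, -0.49, and was the cluster of the class where Cxcl9 was also lowest relative to WT. Among lymphocytes, CD8 T-like cells had 27.2 CPM in KO and 35.8 CPM in WT, and regulatory T-like cells, which also held more macrophage markers (10905 and 10535 CPM against 637 and 881 CPM), had 308 and 304 CPM. B lineage-like cells had 136 CPM in KO (38 cells) and 424 CPM in WT (23 cells), with 20 of the 76 WT UMIs in 1 cell. Their macrophage markers summed to 3813 CPM in KO and 10888 CPM in WT, and the part of these was not tested. Adam10 and Adam17, proteases that release CXCL16 from the membrane, were at 172 and 185 CPM in macrophage- or monocyte-like KO cells and at 142 and 162 CPM in WT, log2 ratios of 0.28 and 0.19. None of the 6 genes of the list of CXCL16 proteases and partners (Adam10, Adam17, Il15, Il15ra, Scarb1, Cd36) passed the fold in that class.

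Cxcr6 was found mainly in T-like cells. T-like cells held 59.5% of its UMIs in KO and 60.8% in WT. A further 29.7% and 30.3% lay in cluster 15, an unnamed cluster with T cell and macrophage transcripts together, in which 34.9% of KO cells had UMIs of both sex types. In macrophage- or monocyte-like cells the level was 0.605 CPM in KO and 0.489 CPM in WT, but mature dendritic-like cells had 5.55 CPM in KO (5 UMIs) and 33.5 CPM in WT (54 UMIs). In fibroblast-like cells there were 0 UMIs in 162 KO cells, which allows a level of up to 0.943 CPM, and 11 UMIs in WT, or 2.79 CPM.

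Within lymphocytes, the order of the Cxcr6 levels was nearly the same in both libraries. Gamma delta or IL-17 T-like cells, cluster 24, had 295 CPM in KO (220 to 387, 31 cells) and 501 CPM in WT (428 to 583, 69 cells), a log2 ratio of -0.76. CD8 T-like cells, cluster 22, had 324 CPM in KO (288 to 363) and 341 CPM in WT (321 to 362), which do not separate. In KO the intervals of these 2 clusters overlap, whereas in WT cluster 24 lay above cluster 22. Conventional CD4 T-like cells, cluster 13, followed with 197 CPM in KO (163 to 236) and 163 CPM in WT (137 to 193). NK-like cells had 53.4 CPM in KO (39.5 to 70.6) and 44.4 CPM in WT (36.5 to 53.6), and regulatory T-like cells 32.9 CPM (25.9 to 41.2) and 34.7 CPM (28.1 to 42.5), so that in both pairs the libraries do not separate. In the full data, 76.1% of KO and 71.2% of WT CD8 T-like cells had a Cxcr6 UMI (median depths 6142 and 4645 UMIs), and after thinning 23.7% and 28.8%. Of fibroblast-like cells, taken as the background, 0% in KO and 2.18% in WT had one at median depths of 20728 and 15024 UMIs.

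The lower Cxcr6 level of KO T-like cells went with a smaller share of CD8 T-like cells. Over the class the level was 137 CPM in KO (125 to 149) and 210 CPM in WT (199 to 221), a log2 ratio of -0.60. CD8 T-like cells were 25% of KO T-like cells (21.4 to 28.9%, 134 of 536) and 46.8% of WT T-like cells (44.0 to 49.6%, 583 of 1247). Regulatory T-like cells, which carried little Cxcr6, were 42.9% and 27.1%. Their macrophage markers summed to 10905 CPM in KO and 10535 CPM in WT, and 22.6% of their KO cells had UMIs of both sexes. The part of these in the shares and levels was not tested. The KO levels of the 4 T-like clusters, weighted by the UMI shares those clusters have in WT, gave 196 CPM. The WT levels with KO shares gave 146 CPM, close to the KO value. Over all cells the same exchange gave 28.9 CPM for KO levels in WT shares and 18.8 CPM for WT levels in KO shares, beside 16.6 CPM observed in KO and 32.1 CPM in WT.

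**Figure D3:**
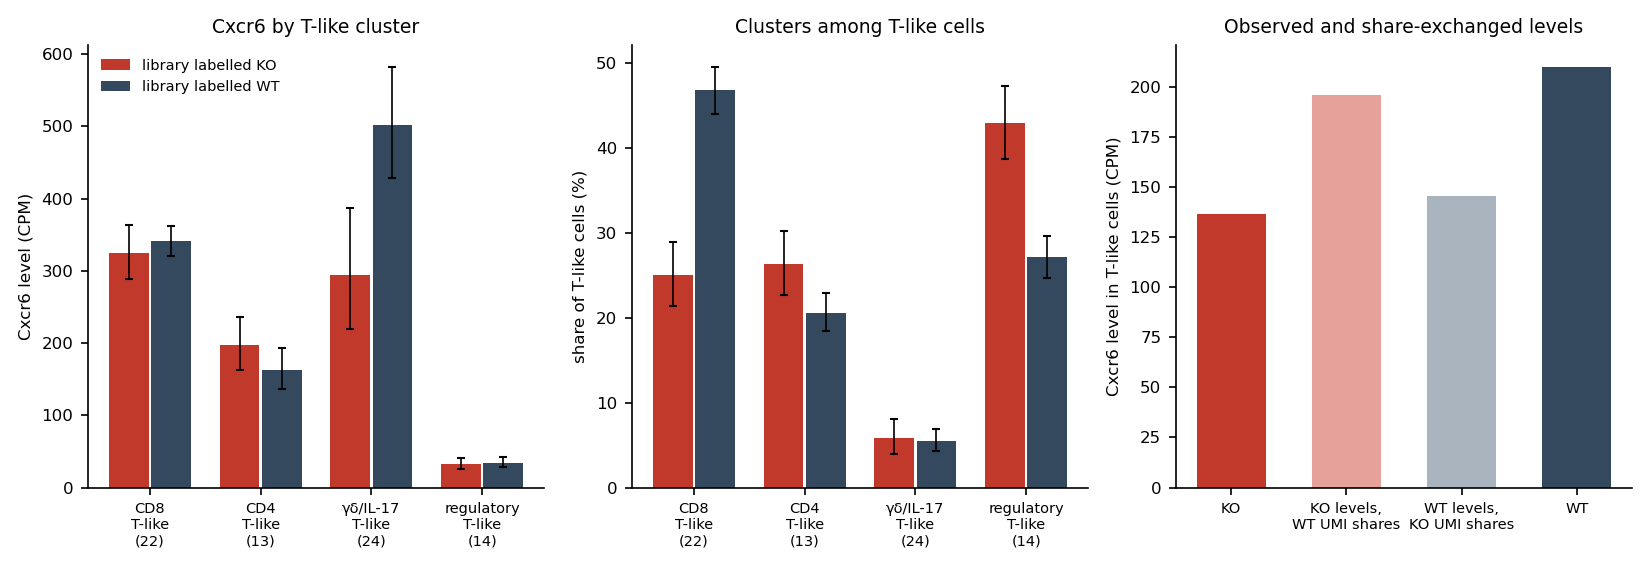
Cxcr6 level (UMIs per 1000000) in the 4 T-like clusters (left), the share of each cluster among T-like cells in percent (middle), and the class level observed and after exchanging the clusters' UMI shares between libraries (right). KO bars stand left of WT bars with 95% counting intervals: CD8 T-like cells have 324 and 341 CPM but are 25% and 46.8% of the class, and KO levels in WT shares reach 196 CPM.

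In T-like cells, 1 of the 5 members with at least 50 UMIs was higher past the fold (Cxcl10) and 1 was lower (Cxcr6), where 4.33% of 10522 genes were higher and 3.77% lower. The Cxcr6 ratio of the class lay between -0.71 and -0.11 over the alternatives, and it did not reach the fold in 8 of 14. It was -0.29 without cells of both sex types and -0.11 in male-type cells alone. Within the CD8 T-like cluster, the sexes of the KO library differed: 392.4 CPM in female-type KO cells (338 to 453), 242 CPM in male-type KO cells (195 to 298) and 337 CPM in male-type WT cells (316 to 360), whose interval overlaps that of the female-type KO cells. In conventional CD4 T-like cells the male-type KO cells were the highest, with 154 CPM in female-type KO cells (116 to 199), 386 CPM in male-type KO cells (282 to 516) and 149 CPM in male-type WT cells (121 to 182).

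Cxcr3 and Cxcr6 were both present in the conventional CD4 T-like cluster and parted in CD8 T-like cells. Of the clusters with at least 20 cells in each library Cxcr3 had its highest CPM in conventional CD4 T-like cells, at 48.4 CPM in KO (32.4 to 69.5) and 72.7 CPM in WT (55.6 to 93.4). Regulatory T-like cells, whose interval overlaps that one in KO, had 39.0 CPM in KO (31.3 to 48.0) and 35.5 CPM in WT (28.7 to 43.3). Their macrophage markers were higher, at 10905 and 10535 CPM against 2418 and 1545 CPM. By share of cells with a Cxcr3 UMI they came first, at 28.3% and 21.9% against 15.6% and 20.6%. They were also the deeper cluster, and after thinning the shares were 6.73% and 3.92% against 8.09% and 10.3%. CD8 T-like cells, which had some of the highest Cxcr6 levels, were low in Cxcr3, with 5.44 CPM in KO (5 UMIs) and 8.17 CPM in WT (26 UMIs). Only 3.73% of KO and 3.95% of WT CD8 T-like cells had a Cxcr3 UMI. NK-like cells had 20.7 CPM in KO (12.5 to 32.3) and 19.6 CPM in WT (14.4 to 25.95). The counts are small, and over the T-like class the level was 31.9 CPM in KO (26.6 to 38.0) and 27.03 CPM in WT (23.3 to 31.1), intervals that overlap.

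Dendritic-like cells carried Cxcr3 too. In cDC1-like cells it was at 38.5 CPM in KO (24.7 to 57.4, 24 UMIs) and 20.3 CPM in WT (13.4 to 29.6, 27 UMIs), a log2 ratio of 0.78 with overlapping intervals. Plasmacytoid dendritic-like cells, known to use CXCR3 to enter lymph nodes, had 10 UMIs in 25 KO cells and 4 UMIs in 25 WT cells. B lineage-like cells, led by Igkc, Igha and Jchain, had 12 UMIs in 38 KO cells and 0 in 23 WT cells, which allows up to 20.6 CPM in WT. Of those 12 UMIs, 6 lay in 1 cell, and leaving it out gave 12.8 CPM in KO, under that WT limit. Median depths were 11792 UMIs in KO and 3050 UMIs in WT. In macrophage- or monocyte-like cells the level was 0.665 CPM in KO and 0.675 CPM in WT. Cxcr3 and Cxcr6 UMIs were found together in 4 of 134 KO and 16 of 583 WT CD8 T-like cells, in 12 of 141 and 24 of 257 conventional CD4 T-like cells (54.5% and 45.3% of those with a Cxcr3 UMI, against 36.1% and 29.9% of those without) and in 3 of 103 and 8 of 338 NK-like cells.

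Ligand transcripts were also found in lymphocyte clusters. In T-like cells, Cxcl10 was at 187 CPM in KO (174 to 201) and 79.0 CPM in WT (72.6 to 85.8), a log2 ratio of 1.19. The summed macrophage markers of the same cells were at 6954 CPM in KO and 4859 CPM in WT, with none of the 12 markers at 0 and 19695 and 19485 CPM in the macrophage or monocyte class, and 12.7% of KO T-like cells had UMIs of both sexes. Their part in the result was not tested. In CD8 T-like cells, whose macrophage markers were lowest, at 637 and 881 CPM, Cxcl10 was at 26.1 CPM in KO and 25.8 CPM in WT. Conventional CD4 T-like cells had 253 CPM in KO and 101 CPM in WT, but 78 of the 152 KO UMIs lay in 1 cell, and leaving out the top cell of each library gave 128 and 85.0 CPM. Regulatory T-like cells had 226 CPM in KO and 134 CPM in WT, with macrophage markers at 10905 and 10535 CPM and 22.6% of KO cells with UMIs of both sexes. The class ratio was 0.68 on the log2 scale without such cells and 0.19 in male-type cells alone.

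In NK-like cells, 2 of the 5 members with at least 50 UMIs were lower past the fold in KO, Cxcl9 and Cxcl16, and none was higher, where 8.45% of 7222 genes were lower and 3.46% higher. Cxcl9 was at 27.2 CPM in KO (25 UMIs) and 111 CPM in WT (271 UMIs), with 79 of the WT UMIs in 1 cell. Cxcl16 was at 32.7 CPM in KO and 72.2 CPM in WT, a log2 ratio of -1.03 that did not reach the fold without a mitochondrial limit (-0.14), without doublet removal (-0.087) or thinned (-0.28). The macrophage markers summed to 870 CPM in KO and 1757 CPM in WT in the same direction, and their part was not tested. Cxcl10 was at 71.9 CPM in KO and 71.8 CPM in WT, but 47 of the 66 KO UMIs lay in 1 cell, and leaving out the top cell of each library gave 20.9 CPM in KO and 56.8 CPM in WT. The lower Cxcl9 also did not hold under other settings, at log2 ratios of 0.43 with cells thinned to 1000 UMIs and 0.72 with NK cells gated by markers.

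**Figure D4:**
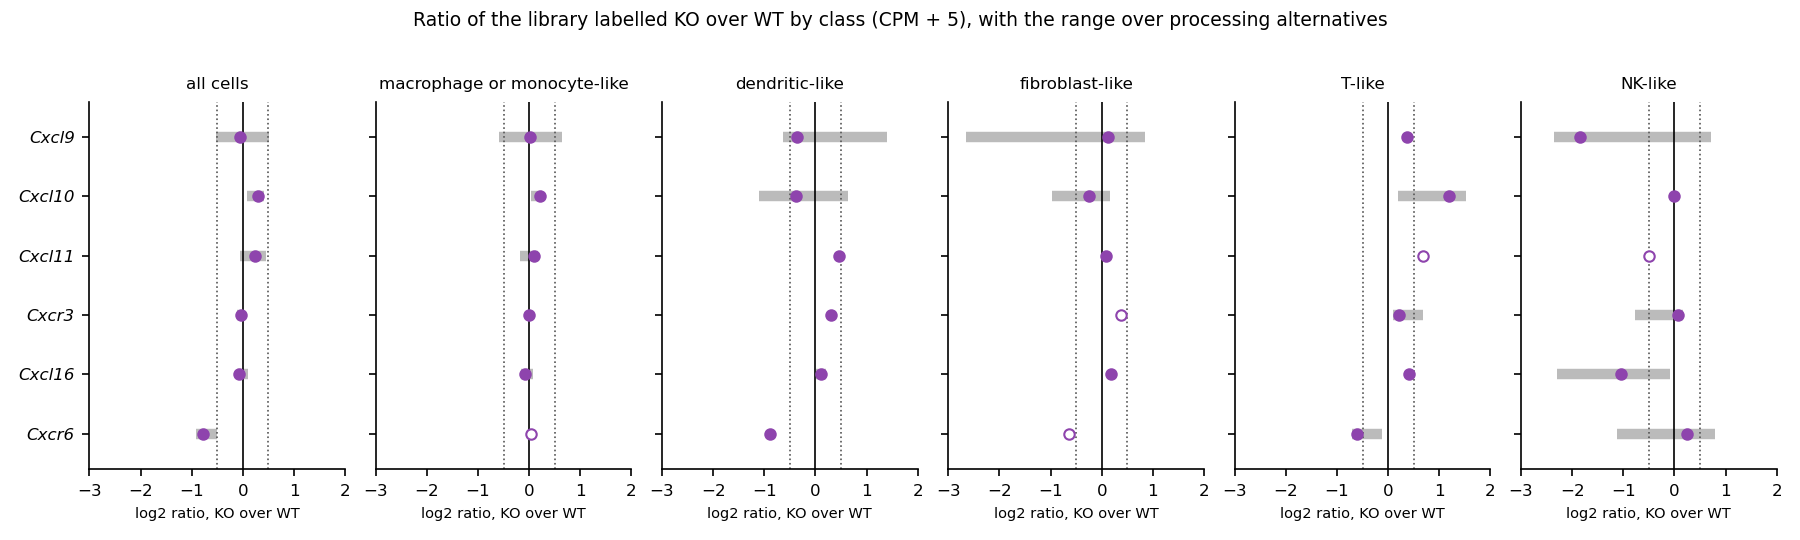
Log2 ratio of KO over WT (x axes, CPM plus 5 in both) for the 6 genes (rows) over all cells and in 5 classes (panels). Points are filled where the libraries together hold 50 UMIs or more and open otherwise, grey bars span the processing alternatives where they were run, and dotted lines mark 0.5 in either direction. Cxcr6 over all cells stays below 0 across its bar, whereas the Cxcl9 bar crosses 0 in each panel where it was drawn.

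Genes whose level followed a member over the 26 clusters were ranked by the lower of the Pearson correlations in KO and WT among 11434 genes. The clusters share libraries and depth, so the values are descriptions. Nearest to Cxcl9 were the antigen-presentation genes H2-DMa (r of at least 0.82 in both libraries) and H2-DMb1, and Aif1, Slamf8 and Ly86. Nearest to Cxcl10 were the interferon-induced genes Oasl2 (0.81), Gbp2, Ifih1 and Ifi204, followed by Tpst1, and nearest to Cxcl11 was Cxcl10 itself (0.74), followed by Oas1g, Ifih1, Phf11d and Oasl2. Nearest to Cxcl16 were Cd302 (0.92), Ctsz, Nampt, Cd83 and Ctss. The receptors followed lymphocyte genes, Cxcr6 the T cell receptor complex genes Trbc2 (0.96), Cd247, Cd3d, Cd3e and Zap70, and Cxcr3 S1pr4 (0.85), Septin1, Tbc1d10c, Sntb1 and Ctla4. The profile of each member over the clusters correlated between the libraries at 0.94 for Cxcr6, 0.93 for Cxcl16, 0.89 for Cxcr3, 0.87 for Cxcl10, 0.80 for Cxcl9 and 0.76 for Cxcl11.

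Interferon gamma signalling genes mostly stayed within the fold in macrophage- or monocyte-like cells. Over all genes of the class, as given above, 1.28% were higher past the fold and 1.11% lower, and the list counts stand beside those shares. Of 12 genes of interferon gamma and its signalling, 1 was lower past the fold and none higher, with a median log2 ratio of -0.15. The lower gene was Ciita, the master switch of MHC class II genes, at 76.0 CPM in KO and 114 CPM in WT (-0.56), and the most abundant was Irf8, at 202 and 233 CPM. Of 21 interferon gamma-type targets, 4 were lower and none higher, with a median of -0.18. Nos2, the inducible nitric oxide synthase, was at 15.5 CPM in KO and 30.7 CPM in WT (-0.80), Ly6i at 31.6 and 47.7 CPM (-0.53), and Psmb8, an immunoproteasome subunit and the most abundant of the list, at 375 and 454 CPM (-0.27). The median over all 13540 genes was -0.0015. In male-type cells alone, none of the 21 targets passed the fold and the median was 0.01, while in female-type KO cells 7 were lower.

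Type I interferon targets were more often lower than higher. Of 16 measured, 8 were lower past the fold and 1 was higher, with a median log2 ratio of -0.49. The shares over all genes of the class were 1.11% lower and 1.28% higher. Irf7, which amplifies the type I response, was at 31.4 CPM in KO and 71.0 CPM in WT (-1.06), Oasl2 at 38.4 and 76.4 CPM (-0.91), and Isg15, the most abundant, at 126 and 156 CPM (-0.29). Ifih1, the RNA sensor MDA5 and a leading gene of cluster 5, was the higher one, at 119 CPM in KO and 79.6 CPM in WT (0.55). The counts were 8 lower and 1 higher in male-type cells alone and 6 lower and 0 higher in female-type KO cells. Cluster 10, which these genes define, was a smaller part of the class in KO, 2.82% against 5.95% in WT. Cxcl10 did not share the direction of this list, at a log2 ratio of 0.21 in the same cells.

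NF-kappaB targets and other chemokines were more often higher in the same class. Of 12 NF-kappaB targets, 4 were higher past the fold and none lower, with a median of 0.30, beside 1.28% higher and 1.11% lower over all genes. Tnf was at 251 CPM in KO and 126 CPM in WT (0.96), Nfkbia, the inhibitor that NF-kappaB induces, at 1817 and 1197 CPM (0.60), and Il1b, the most abundant, at 2553 and 1800 CPM (0.50). Of 20 other chemokines, 12 were higher and 2 lower, with a median of 0.63, and the counts were 9 and 2 in male-type cells alone. Ccl4 and Ccl3 were at 1145 and 328 CPM in KO and 407 and 132 CPM in WT (1.48 and 1.28), and Cxcl2, the most abundant, at 6933 and 5034 CPM (0.46). Ccl6 and Ccl17 were the 2 lower ones, at 506 and 34.0 CPM in KO and 838 and 51.6 CPM in WT (-0.72 and -0.54). The 4 ligands of CXCR3 and CXCR6 stayed between -0.07 and 0.21. Of 5 cytokines that raise interferon gamma, none passed the fold, with Il12b at 9.62 CPM in KO and 5.54 CPM in WT (0.47).

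**Figure D5:**
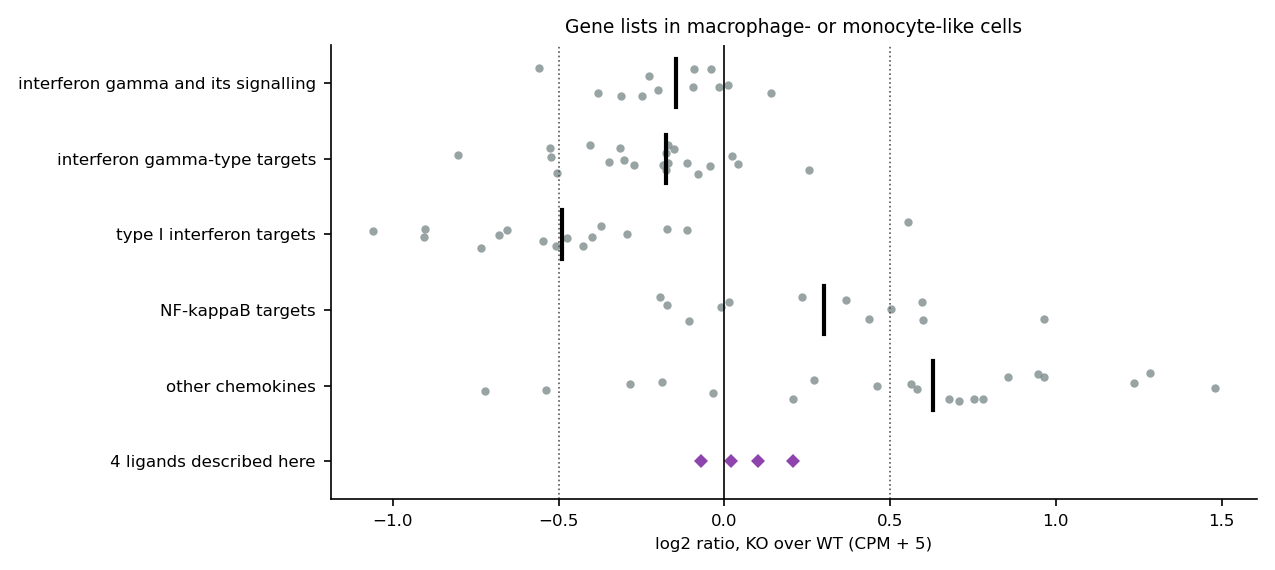
Log2 ratio of KO over WT (x axis, CPM plus 5) of single genes (grey points, spread vertically for legibility) of 5 lists in macrophage- or monocyte-like cells, with list medians as black bars and the 4 ligands as diamonds. Type I interferon targets have a median of -0.49 and other chemokines of 0.63, while the ligands lie between -0.07 and 0.21.

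On the lymphocyte side, regulators of type 1 effector cells were compared in T-like cells. Of 10 regulators, 5 were lower past the fold and none higher, with a median of -0.47, beside -0.05 over all 10522 genes, of which 4.33% were higher and 3.77% lower. Tbx21, which encodes T-bet and drives Cxcr3 in T cells, was at 123 CPM in KO and 223 CPM in WT (-0.84), Eomes at 5.78 and 12.5 CPM (-0.69), and Id2, the most abundant, at 626 and 551 CPM (0.18). Runx3 itself, at the levels given above, was among the 5 lower ones (-0.50). In male-type cells alone 3 of the 10 regulators were higher and none lower, with a median of 0.25, and in female-type KO cells 4 were lower and 1 higher. The count also moved with the processing. At resolution 2, 1 was higher and none lower (median -0.17), and at resolution 0.5, 1 was higher and 1 lower (-0.28). With the stricter filter, without doublet removal or without cells of both sex types, 2 were lower and 1 higher. Without mitochondrial and abundant genes, 5 stayed lower and none was higher. Ifng, the cytokine that induces the CXCR3 ligands, was at 148 CPM in KO T-like cells and 238 CPM in WT T-like cells (-0.67). The CD8 T-like share of the class, 25% and 46.8%, moved with these values, and its part was not tested.

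Residency and homing genes of T-like cells went both ways. Over all genes of the class, 4.33% were higher past the fold and 3.77% lower. Of 7 residency genes, 1 was lower past the fold, Itga1, the alpha chain of a collagen receptor, at 31.2 CPM in KO and 49.7 CPM in WT (-0.60). Cd69, which holds T cells in tissue, was at 258 and 198 CPM (0.38), and the most abundant, Rgs1, at 881 and 642 CPM (0.45). Of 4 egress and lymph node homing genes, 2 were higher, Klf2 at 135 CPM in KO and 69.9 CPM in WT (0.91) and S1pr1 at 37.7 and 20.1 CPM (0.77), but in male-type cells alone none was higher and 2 were lower. Of 8 other lymphocyte chemokine receptors, 2 were higher, Cxcr4 at 174 CPM in KO and 74.4 CPM in WT (1.17) and Ccr6, a receptor of IL-17-producing T cells, at 12.3 and 4.53 CPM (0.86). Ccr2, the most abundant of them, was at 270 and 229 CPM (0.23). In male-type cells alone 1 of 7 such receptors was higher and 1 lower.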

How the data were processed

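The deposited matrices hold raw UMI counts per gene and cell, written with Cell Ranger 8.0.1 per the file headers. The submitters' processing notes name mm10 and Seurat 3, and the labels describe a microwell kit. Gene positions came from an mm10 annotation that held 52081 of the 55357 IDs, and promoters from RefSeq (GRCm38.p6).

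Cells needed at least 500 UMIs, 200 genes and at most 25% mitochondrial UMIs, which 5513 KO and 8800 WT barcodes passed. Scrublet's own threshold marked 1 and 0 cells, so cells at or above the 95th percentile of the scores were left out (319 in KO and 457 in WT, tied scores included). Cells were scaled to 10000 UMIs and clustered with scanpy 1.11.5 (2000 variable genes without the 6 members, 30 components, 15 neighbours, Leiden resolution 1). Clusters were named from marker lists by a rule revised after the data were seen, and 5 of 28 stayed unnamed.

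Counts were summed per library and cluster or class and given as CPM with exact Poisson intervals, and shares with exact binomial (Clopper-Pearson) intervals, both at 95% and for counting error only. The log2 ratio is KO over WT of CPM plus 5. A gene counts as past the fold at 0.5 or more in size with at least 50 UMIs over both libraries. Thinned shares left out 155 KO and 184 WT cells under 1000 UMIs. Genes outside the 6 were named by rule: from each of 11 lists the largest ratios, up to 2 in each direction, and the highest level, and the 5 genes with the most similar profile. The members and lists were chosen with earlier results of these data known. The summing and ratio steps were tested on simulated data.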

Additional observations from a re-analysis of the deposited data

Results flagged for a closer look

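The libraries' ratio of Cxcl9 went in opposite directions in different clusters, and so did that of Cxcl10. These differences between clusters were not tested, since each rests on 1 library per group.

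For Cxcl9, the log2 ratio of KO over WT was 0.68 in cluster 4, the macrophage-like cells led by Ccl8, and -3.004 in cluster 26, the B lineage-like cells. The B lineage-like level was 57.5 CPM in KO (38 cells) and 496 CPM in WT (23 cells), with 69 of the 89 WT UMIs in 1 cell. Macrophage markers in those cells summed to 3813 CPM in KO and 10888 CPM in WT, and their part in the result was not tested.

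For Cxcl10, the log2 ratio was 1.79 in cluster 24, the gamma delta or IL-17 T-like cells, and -0.94 in cluster 25, the cDC1-like cells. In cluster 24 the level was 300.5 CPM in KO (225 to 393, 31 cells) and 83.0 CPM in WT (55.2 to 120.0, 69 cells). Of the 53 KO UMIs, 17 lay in 1 cell, and leaving out the top cell of each library gave 211 and 58.1 CPM. Macrophage markers there summed to 4213 CPM in KO and 5063 CPM in WT, and their part in the result was not tested. In cDC1-like cells, Cxcl10 was at 51.4 CPM in KO and 103 CPM in WT.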

How the results depend on the processing

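No paired analysis was possible because each group has 1 library. Values are log2 ratios of KO over WT, and the alternatives with female-type KO cells were added after seeing the data. Over all cells, Cxcr6 kept its direction and its side of the fold throughout, at -0.79 without a mitochondrial limit, -0.76 without doublet removal, -0.82 without mitochondrial and abundant genes, -0.76 with the median gene ratio, -0.51 with a pseudocount of 20 CPM and -0.79 in female-type KO cells. In T-like cells the same gene was at -0.31 with the stricter cell filter, -0.30 without doublet removal, -0.29 without cells of both sex types, -0.45 and -0.27 at resolutions 0.5 and 2, -0.47 thinned, -0.11 in male-type cells and -0.31 in female-type KO cells. In NK-like cells it was at 0.80 with the marker gate, which kept 10 KO cells, and -1.12 thinned. Cxcr3 in T-like cells was at 0.68 in male-type cells.

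Over all cells, Cxcl9 was at -0.13 without cells of both sex types, -0.15 thinned, -0.032 with the median gene ratio, 0.51 in male-type cells and -0.53 in female-type KO cells. Cxcl10 was at 0.24, 0.40, 0.42 and 0.080 without cells of both sex types, thinned, in male-type and in female-type KO cells. Cxcl11 was at 0.16 without cells of both sex types, 0.028 thinned, 0.12 with a pseudocount of 20 CPM and -0.051 in female-type KO cells. Cxcl16 was at -0.051 with the median gene ratio, 0.10 in male-type and -0.12 in female-type KO cells.

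In macrophage- or monocyte-like cells, the stricter filter gave -0.19 for Cxcl9, 0.049 for Cxcl10 and -0.11 for Cxcl16. No mitochondrial limit gave -0.10 for Cxcl9 and 0.14 for Cxcl10. No doublet removal gave -0.077, 0.14 and -0.10 for Cxcl9, Cxcl10 and Cxcl16, and leaving out cells of both sex types -0.056 and 0.15 for Cxcl9 and Cxcl10. Resolution 0.5 gave -0.019, 0.11 and -0.026 for the 3 genes, and resolution 2 gave 0.089 and 0.25 for Cxcl9 and Cxcl10. The marker gate gave -0.23 for Cxcl9 and -0.16 for Cxcl16, and thinning -0.14 for Cxcl9. Male-type cells gave 0.63, 0.25 and 0.086 for the 3 genes, and female-type KO cells -0.59, 0.038 and -0.17. Cxcl9 in NK-like cells, at -1.84, turned to 0.72 with the marker gate and 0.43 thinned. The cause of these shifts was not tested.

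The number of list genes past the fold was 37 in macrophage- or monocyte-like cells and 19 with a pseudocount of 20 CPM. In T-like cells it was 42, and 27 at resolution 2, 24 with the stricter filter and 22 with a pseudocount of 20 CPM. Counting intervals hold no spread between animals, and Cxcr3 and Cxcl11 counts were too small in most clusters to show a difference.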

Other observations

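Cluster 16, an unnamed cluster led by Cxcl3, Serpinb2 and Slpi, was 5.12% of KO cells (266) and 0.467% of WT cells (39). Its Cxcl9 level was 109 CPM in KO (97.3 to 123) and 27.6 CPM in WT (12.6 to 52.5, 9 UMIs), and its Cxcl10 level 265 CPM in KO (246 to 285) and 500.5 CPM in WT (427 to 583). Of the 163 WT UMIs of Cxcl10, 49 lay in 1 cell. Leaving out the top cell of each library gave 255 CPM in KO and 361 CPM in WT. Cluster 9, unnamed and led by Ear2, Asgr2 and Ccl17, was 2.43% of KO and 7.05% of WT cells and held 3.44% of Cxcl9 UMIs in KO and 10.9% in WT.

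Neutrophil-like cells numbered 102 in KO and 14 in WT. Their 190 KO UMIs of Cxcl10 included 139 in 1 cell, and the WT cells had 4 UMIs. Osteoclast-like cells had Cxcl16 at 103 CPM in KO (79.7 to 130.0, 41 cells) and 188 CPM in WT (151 to 232, 32 cells). Mature dendritic-like cells, which had high Cxcl16, also held Cxcr6 UMIs, 5 in 99 KO cells and 54 in 187 WT cells.

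In T-like cells, 2 of 20 interferon gamma-type targets were higher past the fold and none lower, and 4 of 13 type I interferon targets were lower and none higher. Of 11 NF-kappaB targets 5 were higher and none lower, and of 19 other chemokines 12 were higher and 5 lower. The shares over all genes of the T-like class were 4.33% higher and 3.77% lower. Macrophage markers in these cells summed to 6954 CPM in KO and 4859 CPM in WT, and their part in these counts was not tested.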
